A study of Mus musculus with 6 samples.

Results

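Amino acid catabolism is described here through 40 genes that encode the enzymes breaking down tyrosine, tryptophan, methionine and cysteine, the branched-chain amino acids, lysine, proline, glycine, serine and histidine. They were picked by gene symbol, with no measured value in the rule, from the 55401 genes of a liver RNA-Seq table. The choice was made with earlier results of these data known. The livers came from 3 WT and 3 *Asgr1*-/- mice, males on a C57BL/6 background aged 13 weeks and fasted overnight, with 1 library per mouse. The knockout had been made with CRISPR/Cas9 and a pair of guide RNAs, the founder was bred to C57BL/6, and the mice of both genotypes were littermates from *Asgr1*+/- crosses. The deletion is carried in the germline and is not limited to hepatocytes, and the labels name no other allele or treatment.

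Liver is the main site where amino acids are taken apart. Each pathway strips the nitrogen, which goes to urea, and leaves a carbon skeleton that enters the citric acid cycle or becomes glucose, ketone bodies or fat. During a fast these pathways feed gluconeogenesis, and several of the enzymes are marker proteins of mature hepatocytes. *Asgr1* encodes the major subunit of the asialoglycoprotein receptor, through which hepatocytes take up glycoproteins that have lost their terminal sialic acid. The comparison asks whether the mRNA of these enzymes differed between livers with and without the receptor.

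Counts summed to between 19842637 and 22080809 per library, and a member had between 157 and 104387 counts in a liver. CPM below are counts relative to the library total, scaled with TMM factors that correct for library composition, and FPKM also divide by the exonic length of the gene. *Asgr1* itself was at 723 ± 117 CPM (SD, n = 3) in WT and 2.18 ± 0.507 CPM (SD, n = 3) in *Asgr1*-/- livers, as labelled. Of 7 hepatocyte markers 0 were called and 6 had a log2 fold change below 0, with a median of -0.17. Their summed level was 90193 to 98144 CPM in WT and 80052 to 84794 CPM in *Asgr1*-/- livers, which did not overlap. Without albumin, itself at a log2 fold change of -0.27 (adjusted p = 0.364), the sums overlapped, at 27249 to 33737 CPM in WT and 26632 to 30412 CPM in *Asgr1*-/- livers. The part of these markers in the members' values was not tested. Summed Kupffer cell markers spread more within WT than between the genotypes, with 54.8, 158 and 524 CPM in WT livers 1, 2 and 3 against 194, 152 and 118 CPM in *Asgr1*-/- livers 1, 2 and 3. In whole liver, fewer cells of a type and less RNA per cell cannot be told apart.

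All 40 members were expressed, and most stood among the abundant mRNAs of the liver. Their mean over the 6 livers ran from 3.15 FPKM for *Acmsd* to 1891 FPKM for *Gnmt*, with a median of 61.9 FPKM against 5.13 FPKM over the 10167 genes tested. Of the members, 4 were among the 100 highest genes, 15 among the 500 highest and 27 among the 1000 highest. Their mRNA was unevenly divided, since the 5 highest members held 61.0% of the summed FPKM of the 40 genes and the 10 highest held 77.8%. Methionine enzymes led this order. *Gnmt*, which uses up S-adenosylmethionine by methylating glycine, stood at 1732 ± 92.9 FPKM (SD, n = 3) in WT livers, followed by *Hpd* of tyrosine breakdown at 1129 ± 71.3 FPKM and *Mat1a*, which makes S-adenosylmethionine, at 954 ± 160.2 FPKM. *Mat1a* and *Hpd* overlapped within 1 SD, as did *Mat1a* and the next gene, *Cdo1* (785 ± 213 FPKM). At the low end stood *Acmsd*, which diverts tryptophan carbon away from NAD synthesis, and *Mccc1*, a subunit of methylcrotonyl-CoA carboxylase, the only members under 10 FPKM.

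**Figure D1:**
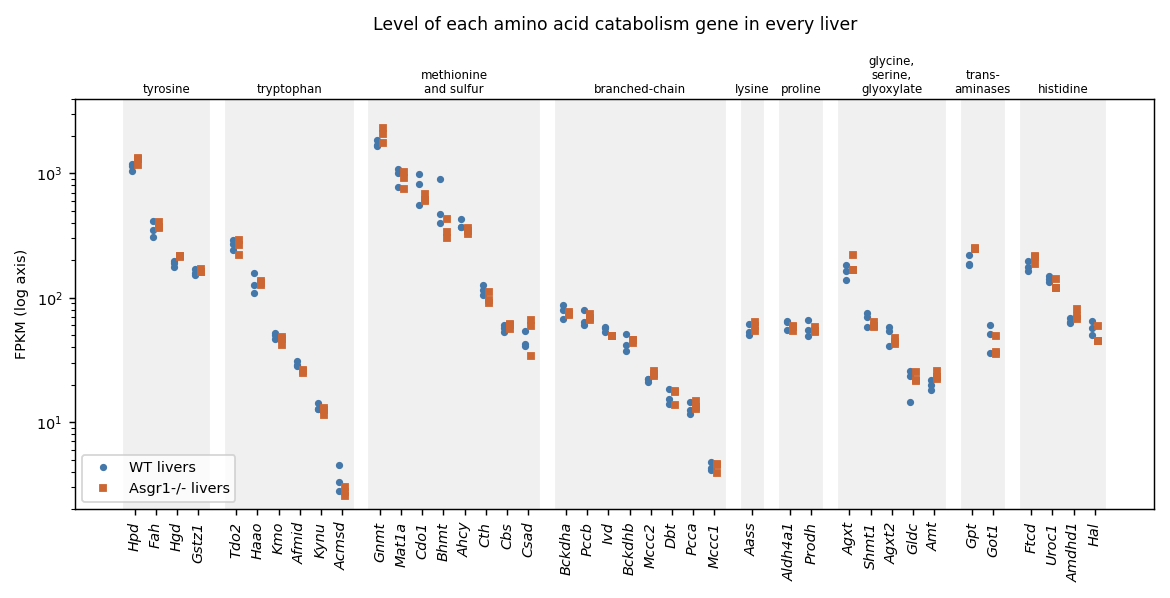
Level of each of the 40 genes in FPKM (log axis) in every liver, grouped by amino acid, with circles for WT and squares for *Asgr1*-/- livers. Levels span 3.15 (*Acmsd*) to 1891 (*Gnmt*) FPKM as means over 6 livers, and the symbols of both genotypes lie close together for nearly every gene.

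The genotypes differed little across these genes, and no member passed the test. With edgeR's quasi-likelihood test, adjusted over all 10167 genes (Benjamini-Hochberg), calls needed an adjusted p below 0.05 together with more than a 1.5-fold change. This called 0 of 40 members, against 30 of all genes tested (0.295%), and the members' adjusted p ran from 0.237 to 0.999. DESeq2 on the same counts also called 0 members, against 2.44% of all genes. Without adjustment, 5 members (12.5%) had a p under 0.05 against 15.5% of all genes. *Afmid*, *Bhmt*, *Cth* and *Ivd* had such a p on the lower side (4 members, background 8.2%) and *Gpt* on the higher side (1 member, background 7.29%). The livers of both genotypes did not overlap for 9 members (22.5%) against 21.9% of all genes, with 6 members lower and 3 higher in *Asgr1*-/- livers against 10.9% of all genes either way. These shares were near the background.

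The sizes of the differences were small and could be bounded. Fitted log2 fold changes (*Asgr1*-/- against WT) ran from -0.79 to 0.28 with a median of -0.07, while the median over all tested genes was -0.02. The value was below 0 for 25 of 40 members (62.5%) against 53.3% of all genes, and this split moved with the scaling: with library totals in place of TMM it was 21 of 40 members against 44.8% of all genes. Only *Bhmt* had a fitted change above 1.5-fold, a size that 6.91% of all genes reached. For 34 of 40 members (85.0%) the 95% interval of the fold change lay wholly within 1.5-fold in either direction, as it did for 56.9% of all genes. The median standard error was 0.12 for the members and 0.15 for all genes, at median levels of 61.9 and 5.13 FPKM. The part of level in these shares was not tested. The intervals of *Acmsd*, *Bhmt*, *Cdo1*, *Csad*, *Got1* and *Hal* reached past that size, so for these 6 a difference of 1.5-fold was within the error.

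**Figure D2:**
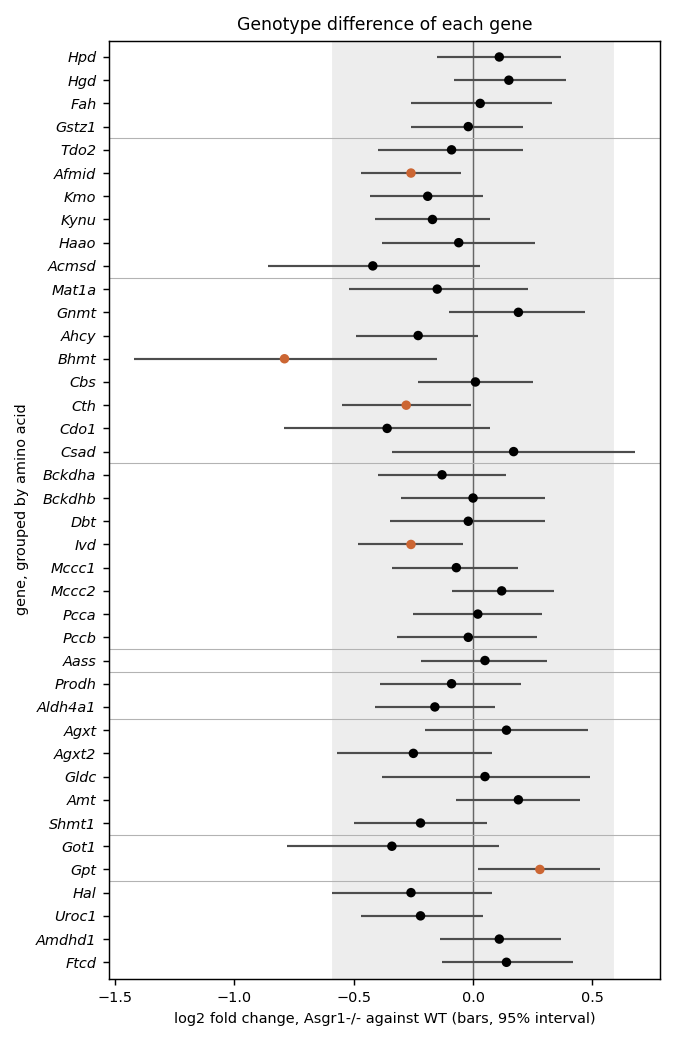
Fitted log2 fold change of each gene, *Asgr1*-/- against WT, with a 95% interval derived from the edgeR F statistic, grouped by amino acid. The points lie between -0.79 (*Bhmt*) and 0.28 (*Gpt*), and 34 of the 40 intervals stay within 1.5-fold.

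The methionine and sulfur group held the member that differed most. *Bhmt* encodes betaine-homocysteine methyltransferase, which remethylates homocysteine to methionine with a methyl group from betaine. It had 5368, 2822 and 2331 CPM in WT livers 1, 2 and 3 against 2425, 1727 and 1949.7 CPM in *Asgr1*-/- livers 1, 2 and 3. WT liver 1 was far above the other 5, and the genotypes overlapped, since *Asgr1*-/- liver 1 was above WT liver 3. The fitted log2 fold change was -0.79 (standard error, SE, 0.28, 95% interval -1.42 to -0.15), with an adjusted p of 0.237 from edgeR. Without WT liver 1 it was -0.34 (SE 0.16, adjusted p = 0.292). Over 16 alternative settings the adjusted p ran from 0.000293 to 0.532, and *Bhmt* was called only where genes of low level were also kept in the test (adjusted p = 0.000293).

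The 250 bases before the RefSeq start site of *Bhmt* (chr13:93637759-93638008, minus strand, GRCm38.p6) are shown because the gene had the widest difference among the members. The gene as counted runs from 93616675 to 93637961. Its start thus lies within this window, and the later bases of the window are inside the gene. Capitals mark AGGTCA, the core that many nuclear receptors of hepatocytes bind, searched on both strands.
Bhmt: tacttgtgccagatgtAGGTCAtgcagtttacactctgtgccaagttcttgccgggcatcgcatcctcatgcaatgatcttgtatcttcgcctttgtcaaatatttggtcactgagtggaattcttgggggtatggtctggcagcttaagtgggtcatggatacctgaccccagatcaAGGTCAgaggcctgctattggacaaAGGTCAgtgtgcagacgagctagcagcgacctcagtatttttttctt
The motif occurred 3 times here, only the first of them upstream of the gene as counted. Over all 32851 RefSeq mouse promoter windows 14.0% held it at least once, and of the 39 windows of the 34 members that could be matched 14 did (35.9%). The background of all windows was not limited to genes expressed in liver. A match describes letters only, and binding was not measured.

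The other sulfur genes differed by less. *Ahcy*, which splits S-adenosylhomocysteine into homocysteine and adenosine, had 1244, 1082 and 1048 CPM in WT livers 1 to 3 against 991, 917 and 961 CPM in *Asgr1*-/- livers 1 to 3. All *Asgr1*-/- livers were below all WT livers, with a log2 fold change of -0.23 (SE 0.11, adjusted p = 0.357). *Cth*, the enzyme that releases cysteine from cystathionine, had 304, 371 and 328 CPM in WT and 304, 268 and 256 CPM in *Asgr1*-/- livers. Here the lowest WT and the highest *Asgr1*-/- liver were apart by less than 1 CPM, and the log2 fold change was -0.28 (SE 0.12, adjusted p = 0.306). *Gnmt* had 2091, 2310.4 and 2063 CPM in WT and 2732, 2124 and 2503 CPM in *Asgr1*-/- livers, which overlapped (log2 fold change 0.19, SE 0.13, adjusted p = 0.520). *Mat1a* was at a log2 fold change of -0.15 and *Cbs*, which joins homocysteine to serine, at 0.01. *Cdo1*, which oxidizes cysteine, was at -0.36, and *Csad*, which carries its product on to taurine, was at 0.17 with *Asgr1*-/- livers from 131 to 257 CPM, the largest coefficient of variation of the 40 genes in that genotype (32.1%). The 8 genes had a median of -0.19.

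In tryptophan breakdown all 6 genes had a fitted value below 0, as did 53.3% of all tested genes, with a median log2 fold change of -0.18. Livers did not overlap for 3 of the 6, all on the lower side, where 10.9% of all genes lay. With values on the FPKM scale 5 of 6 were below 0, *Haao* then being above 0, and without WT liver 1 *Haao* was at 0.09. *Tdo2*, tryptophan dioxygenase, which opens the indole ring and sets the pace of the pathway, had 1082, 1169 and 953 CPM in WT and 1118, 1024 and 863 CPM in *Asgr1*-/- livers. The genotypes overlapped, and the log2 fold change was -0.09 (SE 0.13, adjusted p = 0.783), turning to 0.01 without *Asgr1*-/- liver 3.

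The next enzymes of the chain, *Afmid*, *Kmo* and *Kynu*, were lower in each *Asgr1*-/- liver than in any WT liver, by small amounts. *Afmid*, kynurenine formamidase, had 105, 105 and 112 CPM in WT and 90.9, 90.6 and 87.9 CPM in *Asgr1*-/- livers, a tight separation (log2 fold change -0.26, SE 0.09, adjusted p = 0.244). Of its exonic bases 46.6% are shared with *Gm20708* and *Tk1*, and how shared reads were counted is not given in the sources used here. *Kmo*, which hydroxylates kynurenine, had 229.9, 249 and 249 CPM in WT and 215, 226 and 197 CPM in *Asgr1*-/- livers (log2 fold change -0.19, adjusted p = 0.408). *Kynu*, which cleaves the alanine side chain, had 81.3, 92.1 and 79.4 CPM in WT and 75.8, 79.2 and 70.0 CPM in *Asgr1*-/- livers (log2 fold change -0.17, adjusted p = 0.490). For *Kynu* the groups were only just apart, at 79.4 against 79.2 CPM. *Haao*, the dioxygenase that opens the remaining ring, was at -0.06 and *Acmsd* at -0.42, both with overlapping livers. None of these differences passed the test.

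Tyrosine breakdown was near or slightly above WT. *Hpd*, the target of the drug nitisinone in hereditary tyrosinemia, had 2619, 2327 and 2487 CPM in WT and 2756, 2454 and 2803 CPM in *Asgr1*-/- livers, with overlap (log2 fold change 0.11, adjusted p = 0.688). *Hgd*, homogentisate dioxygenase, the enzyme missing in alkaptonuria, had 513, 533 and 469 CPM in WT and 559, 558 and 568 CPM in *Asgr1*-/- livers. Its groups were apart, at a log2 fold change of 0.15 (SE 0.10, adjusted p = 0.515). *Gstz1*, maleylacetoacetate isomerase, was at -0.02 and *Fah*, the last enzyme of the pathway, at 0.03.

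**Figure D3:**
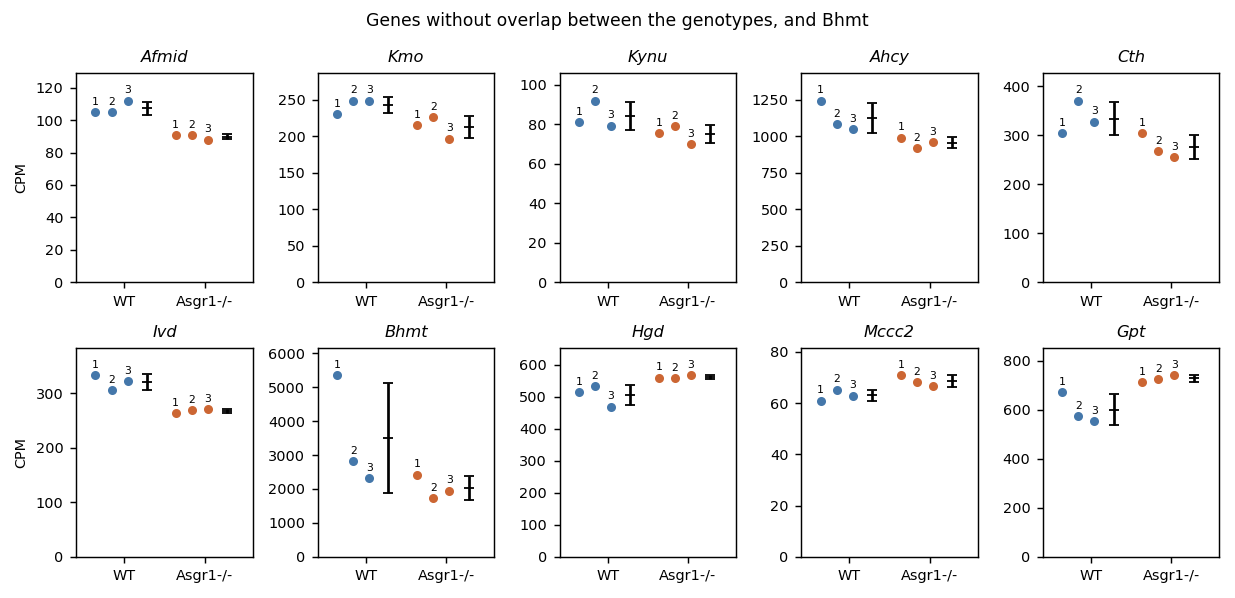
CPM of the 9 genes whose livers did not overlap between the genotypes, and of *Bhmt*, in each liver (numbered points), with the mean and SD of each genotype (n = 3) beside them and axes from 0. *Bhmt* in WT liver 1 stands at 5368 CPM, far above the other 5 livers.

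In the breakdown of leucine, isoleucine and valine, the subunits of the branched-chain ketoacid dehydrogenase did not differ beyond their error. Its E1 subunits *Bckdha* and *Bckdhb* were at log2 fold changes of -0.13 and 0.00, and its E2 core *Dbt* was at -0.02. *Bckdha*, the highest gene of the group per length, had 132, 173 and 155 CPM in WT and 134, 139 and 147 CPM in *Asgr1*-/- livers, which overlapped (SE 0.12, adjusted p = 0.634). Of its exonic bases, 61.7% are shared with *B3gnt8* on the opposite strand. The propionyl-CoA carboxylase subunits *Pcca* and *Pccb* were at 0.02 and -0.02, and *Mccc1* was at -0.07.

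Of the 8 genes of the group 2 were without overlap, both of leucine breakdown, and they lay in opposite directions. The groups did not overlap for 21.9% of all tested genes, with 10.9% on either side. *Ivd*, isovaleryl-CoA dehydrogenase, had 334, 306 and 323 CPM in WT and 264, 269 and 271 CPM in *Asgr1*-/- livers. All *Asgr1*-/- livers lay close together and below WT, with a log2 fold change of -0.26 (SE 0.10, adjusted p = 0.255). *Mccc2*, the partner of *Mccc1* in the next step of leucine breakdown, had 60.9, 65.2 and 62.9 CPM in WT and 71.0, 68.2 and 66.6 CPM in *Asgr1*-/- livers. It was above WT in each liver at a log2 fold change of 0.12 (adjusted p = 0.571). The 250 bases before the RefSeq start of *Ivd* (chr2:118861744-118861993, plus strand, GRCm38.p6) are shown for the member of this group with the smallest p. The gene as counted starts at 118861954, within this window. Capitals mark ATTGG, the CCAAT box read on the other strand.
Ivd: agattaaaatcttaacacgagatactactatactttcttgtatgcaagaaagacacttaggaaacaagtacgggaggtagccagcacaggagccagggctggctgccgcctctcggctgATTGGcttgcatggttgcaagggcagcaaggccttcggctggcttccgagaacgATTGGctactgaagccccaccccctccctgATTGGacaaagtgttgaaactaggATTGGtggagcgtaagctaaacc
The window held 4 copies, the last of them inside the gene as counted, and no AGGTCA. On both strands ATTGG occurred in 33.8% of all promoter windows and in 23 of the 39 member windows (59.0%). Again the background was not limited to genes expressed in liver.

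Among the transaminases, *Gpt* was the member with the highest fold change. It encodes alanine aminotransferase, which passes the nitrogen of alanine to glutamate and frees pyruvate for glucose synthesis. *Gpt* had 673, 575 and 553 CPM in WT and 714, 727 and 743 CPM in *Asgr1*-/- livers. Every *Asgr1*-/- liver was above every WT liver, and the log2 fold change was 0.28 (SE 0.11, 95% interval 0.02 to 0.53, adjusted p = 0.285). *Got1*, cytosolic aspartate aminotransferase, was at -0.34 with overlapping livers, from 92.1 to 158 CPM in WT and from 89.9 to 122 CPM in *Asgr1*-/- livers.

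Histidine breakdown had values below 0 for its early steps and above 0 for its late steps, none of which passed the test. *Hal*, histidine ammonia-lyase, which removes the amino group, was at a log2 fold change of -0.26, and *Uroc1*, urocanase, was at -0.22. *Amdhd1*, which opens the imidazolone ring, was at 0.11. *Ftcd*, which hands the formimino group to tetrahydrofolate, had 652, 544 and 572 CPM in WT and 580.2, 688 and 687 CPM in *Asgr1*-/- livers, with overlap (log2 fold change 0.14, SE 0.12, adjusted p = 0.601). All 4 genes overlapped between the genotypes. *Hal* is known as a periportal gene. The 7 periportal hepatocyte markers had a median log2 fold change of -0.34, from -0.74 (*Sds*) to 0.28 (*Ass1*). Of these 0 were called and 3 had an unadjusted p under 0.05, as did 15.5% of all tested genes. The 3 were *Sds* and *Pck1* (-0.65) on the lower side and *Ass1* on the higher side. Without albumin they summed to 6465 to 6984 CPM in WT and 5059 to 5821 CPM in *Asgr1*-/- livers, with no overlap. The 7 pericentral markers tested had a median of -0.04, also with 0 called and 3 at such a p. These 3 were all lower in *Asgr1*-/- livers, *Slc1a2* (-0.43), *Rgn* (-0.42) and *Glul* (-0.4), while the others ran from -0.04 to 0.13. The part of these markers in the values of *Hal* was not tested.

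The genes for glycine, serine and glyoxylate, proline and lysine overlapped between the genotypes throughout. *Agxt*, which clears glyoxylate in peroxisomes and is lost in primary hyperoxaluria, had 287, 244 and 316 CPM in WT and 276, 283 and 374 CPM in *Asgr1*-/- livers (log2 fold change 0.14, adjusted p = 0.697), and without *Asgr1*-/- liver 3 the sign turned, to -0.01. The glycine cleavage genes *Gldc* and *Amt* were at 0.05 and 0.19, *Shmt1*, which interconverts serine and glycine, at -0.22, and *Agxt2*, a mitochondrial aminotransferase, at -0.25. In proline breakdown *Prodh* was at -0.09. *Aldh4a1*, which follows it, had 279, 335 and 321 CPM in WT and 287, 265 and 286 CPM in *Asgr1*-/- livers (log2 fold change -0.16, adjusted p = 0.520), and it shares 32.5% of its exonic bases with *Gm21969*. *Aass*, the bifunctional enzyme that starts lysine breakdown, had 198, 245 and 207 CPM in WT and 240.3, 224 and 207 CPM in *Asgr1*-/- livers (log2 fold change 0.05, adjusted p = 0.886). Leaving out WT liver 1 or *Asgr1*-/- liver 1 put the *Aass* value at -0.02 or at -0.003.

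Summed over the members, the genotypes overlapped. The 40 genes took 2.65, 2.36 and 2.11% of all counts in WT livers 1, 2 and 3 against 2.42, 2.12 and 2.26% in *Asgr1*-/- livers 1, 2 and 3. Of the members, 15 had their highest value in WT liver 2 and 12 in WT liver 1, while 11 had their lowest in WT liver 3. The same counts were not made over all tested genes, so they cannot be read as particular to the members. The coefficient of variation was larger in WT for 30 of 40 members (75.0%), with a median of 11.2% in WT and 6.82% in *Asgr1*-/- livers. Over all tested genes it was larger in WT for 66.1%, with medians of 13.8% and 9.85%. WT livers 1 and 3 were also the extremes for the Kupffer cell markers, whose part in these values was not tested.

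**Figure D4:**
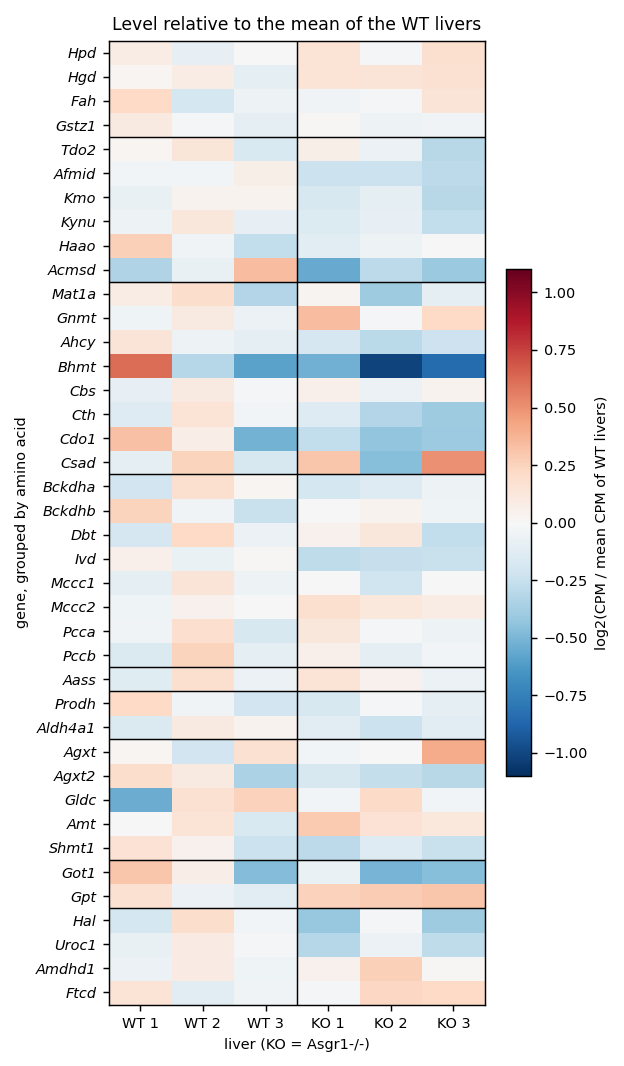
Level of each gene in each liver as log2(CPM / mean CPM of the WT livers), grouped by amino acid, on a color scale centred on 0. Most squares are pale, *Bhmt* shows the widest range, and no liver of either genotype is high or low for all genes.

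Other genes of the same pathways also went without a call, and a fitted change above 1.5-fold was found for 4 of them (7.55%) against 6.91% of all genes. Among the 55 such genes measured, 53 passed the filter on level, and edgeR called 0. An unadjusted p under 0.05 was found for 7 (13.2% against 15.5% of all genes), 5 of them lower and 2 higher, and 10 did not overlap (18.9% against 21.9%). DESeq2 called 3 of the 53 (5.66% against 2.44%), *Kyat3*, *Dmgdh* and *Sds*. This list, too, was chosen with earlier results of these data known. The median log2 fold change was -0.09. *Kyat3*, a kynurenine aminotransferase that turns kynurenine into kynurenic acid, had 197, 256 and 246 CPM in WT and 139, 142 and 112 CPM in *Asgr1*-/- livers. Its groups were well apart, at a log2 fold change of -0.84 (SE 0.14, 95% interval -1.15 to -0.52), with an adjusted p of 0.0543 from edgeR. It was called under 6 of 16 alternative settings, over which the adjusted p ran from 4.05e-06 to 0.202. *Qprt*, which turns the quinolinate of the main tryptophan branch into an NAD precursor, was above WT in each liver, with 205, 185 and 214 CPM in WT and 270.2, 230.4 and 277 CPM in *Asgr1*-/- livers (log2 fold change 0.36, adjusted p = 0.186).

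The 250 bases before the start site of *Kyat3* (chr3:142700798-142701047, plus strand, RefSeq on GRCm38.p6) are given for the amino acid gene with the smallest p, with ATTGG and its reverse complement CCAAT in capitals.
Kyat3: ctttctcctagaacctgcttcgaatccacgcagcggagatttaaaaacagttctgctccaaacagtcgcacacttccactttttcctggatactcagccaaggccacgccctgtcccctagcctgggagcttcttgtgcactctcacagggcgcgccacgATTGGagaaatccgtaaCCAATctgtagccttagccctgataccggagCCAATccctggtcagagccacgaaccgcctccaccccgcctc
It held 3 copies and no AGGTCA, unlike the window of *Bhmt*, which held 3 AGGTCA and 1 ATTGG.

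*Dmgdh* and *Sardh*, which follow *Bhmt* in the use of betaine, were lower in every *Asgr1*-/- liver than in any WT liver. The same held for 10.9% of all tested genes. Neither gene passed the edgeR test, and *Bhmt* itself overlapped between the genotypes. BHMT turns betaine into dimethylglycine, which *Dmgdh* converts to sarcosine and *Sardh* to glycine. *Dmgdh* had 710.5, 753 and 534 CPM in WT and 404, 445 and 403 CPM in *Asgr1*-/- livers, with no overlap (log2 fold change -0.67, SE 0.14, adjusted p = 0.0805). *Sardh*, named after its values were seen, had 954, 1153 and 1099 CPM in WT and 829.7, 826 and 893 CPM in *Asgr1*-/- livers, also with no overlap (log2 fold change -0.33, SE 0.11, adjusted p = 0.218). *Bhmt2*, also named after its values were seen, lies between *Bhmt* and *Dmgdh* on chromosome 13 (93655720 to 93674302, GRCm38) and uses S-methylmethionine in place of betaine. It had 294, 271 and 274 CPM in WT and 302, 259.9 and 279 CPM in *Asgr1*-/- livers, at a log2 fold change of 0.00 (SE 0.11, 95% interval -0.23 to 0.24).

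Serine dehydratase and its relative lay in opposite directions. *Sds*, which turns serine into pyruvate, had 375, 327 and 206 CPM in WT and 190.3, 209.8 and 143 CPM in *Asgr1*-/- livers. WT liver 3 lay within the *Asgr1*-/- range, and the log2 fold change was -0.74 (SE 0.22, adjusted p = 0.169). It shares 29.6% of its exonic bases with genes on the opposite strand, chiefly *Plbd2*, and it is one of the periportal markers above. *Sdsl*, serine dehydratase like, had 23.7, 23.0 and 24.7 CPM in WT and 34.4, 27.9 and 35.8 CPM in *Asgr1*-/- livers, with no overlap (log2 fold change 0.46, SE 0.13, adjusted p = 0.152).

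**Figure D5:**
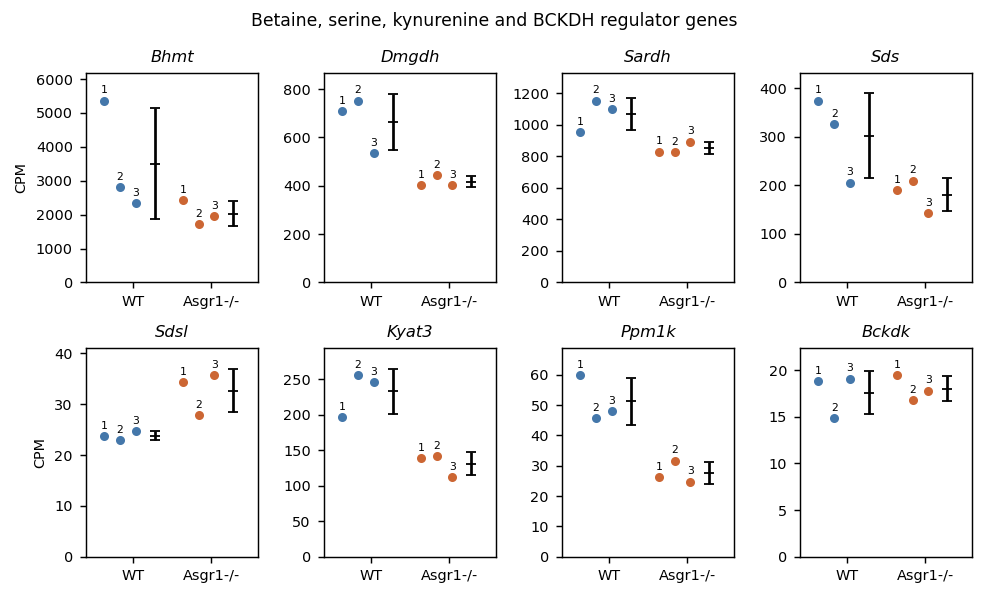
CPM in each liver (numbered points) of *Bhmt*, *Dmgdh* and *Sardh* (betaine), *Sds* and *Sdsl* (serine), *Kyat3* (kynurenine) and the dehydrogenase regulators *Ppm1k* and *Bckdk*, with the mean and SD of each genotype (n = 3) beside them and axes from 0. *Kyat3*, *Dmgdh*, *Sardh* and *Ppm1k* are lower in all 3 *Asgr1*-/- livers than in any WT liver, and *Sdsl* is higher in all 3.

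Of 14 regulators of these pathways tested, edgeR called 0, with 3 at an unadjusted p under 0.05 (21.4% against 15.5% of all genes). DESeq2 called 3 (21.4% against 2.44%), *Ppm1k*, *Ppara* and *Cebpb*. The list was chosen with earlier results of these data known, so its shares are not those of an independent choice. *Ppm1k* encodes the phosphatase that switches the branched-chain ketoacid dehydrogenase on. It had 60.0, 45.7 and 48.1 CPM in WT and 26.3, 31.7 and 24.8 CPM in *Asgr1*-/- livers, with a clear gap, at a log2 fold change of -0.89 (SE 0.15, 95% interval -1.22 to -0.56) and an adjusted p of 0.0504 from edgeR. It was called under 5 of 16 alternative settings (adjusted p 3.88e-06 to 0.221). The opposing kinase *Bckdk*, named after its values were seen, had 18.8, 14.9 and 19.1 CPM in WT and 19.5, 16.8 and 17.8 CPM in *Asgr1*-/- livers (log2 fold change 0.04, 95% interval -0.28 to 0.35). The phosphatase was thus apart between the genotypes while the kinase overlapped and, as given above, so did the dehydrogenase subunits.

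The other regulators named were transcription factors. *Ppara*, the fasting-activated nuclear receptor, had 56.9, 71.1 and 44.9 CPM in WT and 36.1, 35.6 and 37.9 CPM in *Asgr1*-/- livers, with no overlap (log2 fold change -0.66, SE 0.16, adjusted p = 0.113). *Cebpb*, named after its values were seen, had 126, 124 and 261 CPM in WT and 338, 273 and 332 CPM in *Asgr1*-/- livers (log2 fold change 0.88, SE 0.27, adjusted p = 0.173). WT liver 3 lay far above the other WT livers and just below the *Asgr1*-/- range. Without that liver edgeR called *Kyat3*, *Dmgdh*, *Sds*, *Ppm1k*, *Ppara* and *Cebpb*, with adjusted p of 0.0288, 0.00808, 0.0169, 0.0168, 0.0134 and 0.00101, and 288 genes in all in place of 30. WT liver 3 was the WT liver nearest the *Asgr1*-/- values for *Dmgdh*, *Sds*, *Ppara* and *Cebpb*. Without WT liver 1 *Kyat3* was called (adjusted p = 0.0258). Leaving out WT liver 2, or each *Asgr1*-/- liver in turn, called 0 of the other pathway genes and 0 regulators.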

How the data were processed

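Liver RNA was sequenced with 1 library per mouse in 3 WT and 3 *Asgr1*-/- mice. The deposited table holds whole-number read counts per gene and FPKM made by the authors, and FPKM recomputed from counts and exonic sizes agreed within 0.005. The submitters' processing notes name GRCm38 and DESeq2 1.6.3, while the aligner, counting tool and strand setting were not given in the sources used here. In the study's methods, TRIzol and RNeasy were used for extraction and GENEWIZ processed the reads.

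The 10167 genes averaging 1 FPKM or more over the livers were tested with edgeR 4.0.16 (R 4.3.3), TMM, two-sided quasi-likelihood tests and Benjamini-Hochberg adjustment. Single values of 3 against 3 allow no exact permutation p below 0.1. Members and lists were chosen with earlier results of these data known. Every member was named, with all livers given for members with a p under 0.05, without overlap or highest in their group, and for the 5 other pathway genes and 2 regulators of smallest p. Alternatives were DESeq2 1.42.0, limma 3.58.1 on log2(FPKM + 0.1) or log2(FPKM + 1), other size factors, filters, robust fits, a replicate block and leaving out each liver. Exon overlaps come from GENCODE M21. Of the members, 34 had promoter sequences in RefSeq.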

Additional observations from a re-analysis of the deposited data

How the results depend on the processing

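Under 16 alternatives 0 members were called in 15, and *Bhmt* was the 1 member called with no filter on low values (log2 fold change -0.78). The count over all genes, 30, became 248 with DESeq2, 465 with no filter, 70 with a mean FPKM of at least 0.1, 80 with robust edgeR, and 11 and 16 with limma at pseudocounts of 0.1 and 1, and the cause was not tested. Leaving out 1 liver gave 3 to 288 genes and 0 members called. The members' median log2 fold change was -0.003 and -0.002 with limma at these pseudocounts, where the median of all genes was also higher, by 0.064 and 0.055, and -0.12 to -0.03 with 1 liver left out. Members with an unadjusted p under 0.05 numbered 5, but 2 with library totals in place of TMM, 2 and 1 with limma at pseudocounts of 0.1 and 1, 3 without WT liver 2, 2 without *Asgr1*-/- liver 1 or 2, and 0 without *Asgr1*-/- liver 3. The sign turned with 1 liver left out for 15 of the 40 members, whose log2 fold changes were at most 0.17 in size. Among those given liver by liver they were *Tdo2* (0.011, range -0.173 to 0.011), *Agxt* (-0.007, range -0.007 to 0.229) and *Aass* (-0.015 and -0.003, range to 0.145).

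The labels give both genotypes the same replicate numbers and state no pairing. Deviations of same-numbered livers from their group means correlated at -0.142, 0.0392 and -0.0335. Whether such livers shared a litter or a batch is not given, and these values cannot decide it. With a replicate block 23 genes and 0 members were called, the members' median was -0.06 and 1 member had an unadjusted p under 0.05.

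With 3 livers per genotype and a median standard error of 0.12 on the log2 scale, differences of the size seen for most members could not be told from 0. Strand setting and read assignment are unknown, which touches *Gstz1*, *Afmid*, *Bckdha* and *Aldh4a1*, the 4 members sharing at least 10% of their exonic bases.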
